A study of Mus musculus with 146 samples.

Results

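The libraries described here are the 18 hypothalamus libraries of female mice, 10 from mice exposed to ethanol vapor and 8 from mice exposed to air, chosen by their titles out of 146 libraries in the series. Each library came from a different mouse, and the comparison asks how gene expression in this brain region differs after repeated vapor exposure. All mice first drank from a choice of 15% ethanol and water in 2 h sessions for 4 weeks. They then passed through 4 cycles of 4 days in the chambers (16 h on and 8 h off), 72 h undisturbed and 5 days of drinking, and a last round in the chambers came the week before the tissue was taken. RNA came from micropunches and was read from the ends of its transcripts by TagSeq with single reads of 100 bases.

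Both groups were female C57BL/6J mice. The vapor group, called CIE for chronic intermittent ethanol and labelled alcohol_dependent, received 1.75 g/kg ethanol and 68.1 mg/kg pyrazole, which blocks alcohol dehydrogenase, before each exposure, with a target blood alcohol of 175 to 250 mg%. The Air group, labelled non_dependent, received the same dose of pyrazole, given in saline, and breathed air in like chambers. Air mice also drank ethanol, so the comparison is of vapor exposure on top of drinking, not of ethanol against none. The age of the mice is not stated in the labels.

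Cells show fragments of their own proteins on MHC class I molecules, each made of a heavy chain, such as the products of H2-K1 and H2-D1, and the light chain beta-2-microglobulin, the product of B2m. Interferons raise the transcription of these genes and of the machinery that cuts and loads the fragments, and in the resting brain the level is low and comes mostly from endothelial cells and microglia. Ccl5 encodes a chemokine that draws T cells and monocytes and is made by T and NK lymphocytes and by stimulated glia.

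The libraries held 1623310 to 2798107 reads on genes, with a median of 2239320 in Air and 2225621 in CIE. Genes detected, the share of reads not placed on a gene, the share on ERCC spike-in RNA and the share on mitochondrially encoded genes were, with the number of reads, 5 measures compared by two-sided exact permutation tests, which gave p from 0.561 to 0.887 and an adjusted p of 0.887 for each. Xist, the RNA of the silenced X chromosome, lay between 199 and 280 CPM (counts per 1000000 reads on genes) in the 18 libraries. Y-linked Ddx3y reached at most 1.83 CPM. Transcripts that mark the hypothalamus were present in every library but at very uneven levels. Hcrt, the orexin gene of the lateral hypothalamus, ranged from 11.7 to 1513 CPM, and Oxt, the oxytocin gene of the paraventricular and supraoptic nuclei, from 43.1 to 2094 CPM. Pmch ranged from 33.2 to 2353 CPM and Avp from 1.23 to 625 CPM. The spread was wide in both groups, and where in the hypothalamus each punch lay was not tested.

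Some libraries carried transcripts known from liver and from the red cell lineage. Alb, the serum albumin gene, or Alas2, the erythroid enzyme of heme synthesis, exceeded 50 CPM in 10 libraries, which are called batch libraries here although the labels name no batch. They were Air mice 26, 28, 29 and 40 and CIE mice 22, 23, 25, 31, 33 and 35, that is 4 of 8 Air and 6 of 10 CIE libraries. In them Alb lay between 72.4 and 117 CPM and Alas2 between 181 and 360 CPM. In the other 8 libraries Alb stayed at or below 5.33 CPM and Alas2 at or below 9.13 CPM. A two-sided Fisher's exact test of batch against group gave p 1, and the same libraries passed thresholds of 20 and 100 CPM.

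The batch libraries differed from the others in more than these genes. They held 594 to 44323 ERCC reads against 6 to 65 in the others. Ddx3y had reads in 8 of the 10 batch libraries and in 1 of the other 8. With CIE as a term in the model, 192 of 13104 genes (1.47%) were higher in the batch libraries and 4 (0.0305%) lower, at an adjusted p under 0.05 in edgeR. The leading genes were Tent5c, Bpgm, Rsad2, Isg20 and Alb, with log2 differences of 5.49, 2.86, 4.89, 5.40 and 5.09. The batch libraries were defined by Alb or Alas2, so the difference in Alb restates that definition and is no further result. Of 9 erythroid genes tested 8 were called and of 21 liver genes 20. Any call of Alb or Alas2 in these counts was likewise fixed by the definition. Of the globin genes, Hba-a1 had 0 reads in the 18 libraries. Hbb-bs ran from 19.5 to 29.4 CPM in the batch libraries, and outside them it had medians of 10.3 CPM in Air and 3.72 in CIE but reached 41.8 CPM in an Air library. Female blood libraries had Alas2 at a median of 16090 CPM in Air mice, but Alb at 0 CPM. What brought these transcripts into the libraries was not tested.

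**Figure D1:**
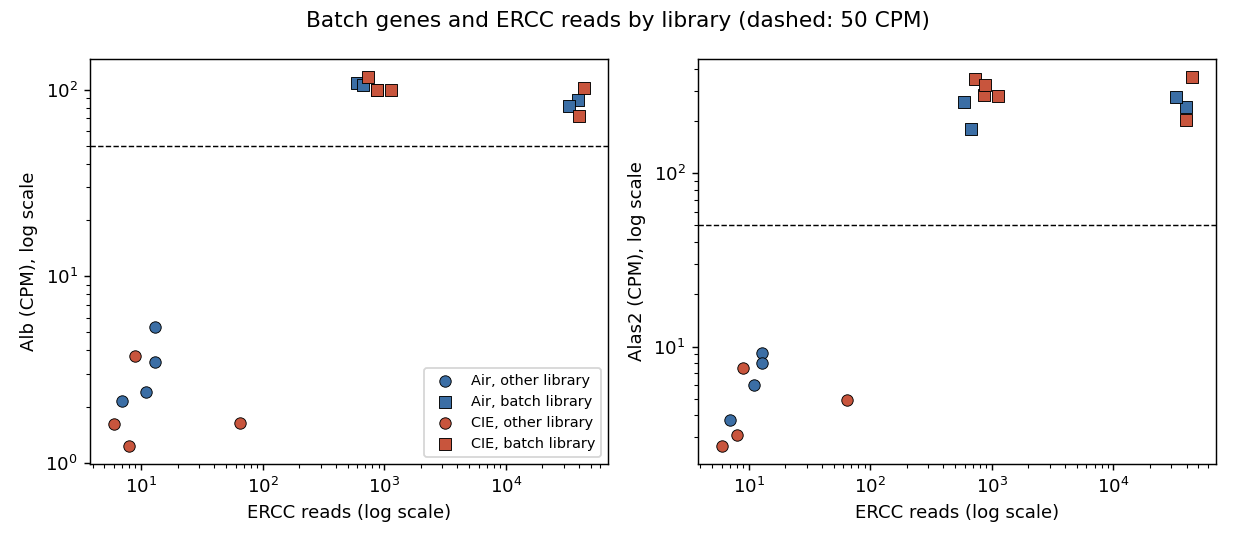
Alb and Alas2 (CPM, log scale) against ERCC reads (log scale) in the 18 female hypothalamus libraries, with Air in blue, CIE in red and batch libraries as squares. The 10 batch libraries lie above the dashed line at 50 CPM, hold at least 594 ERCC reads and include both groups.

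Across 12854 genes tested in the 18 libraries, 2 genes (0.0156%) differed between CIE and Air at an adjusted p under 0.05, and both were higher in CIE. They were Ccl5 and B2m. At an unadjusted p under 0.05, 408 genes (3.17%) were higher and 312 (2.43%) lower. The median log2 fold change of all genes was -0.0013, with 6358 of them above 0, and 98.7% of the genes moved by less than 0.5. In the plot of all genes Ccl5 lay highest. No gene had every CIE library above every Air library: the count was 0 of 12854 (0%) by CPM, beside 408 higher genes in edgeR at an unadjusted p under 0.05. The count with every CIE library below every Air library was also 0, beside 312 lower genes.

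**Figure D2:**
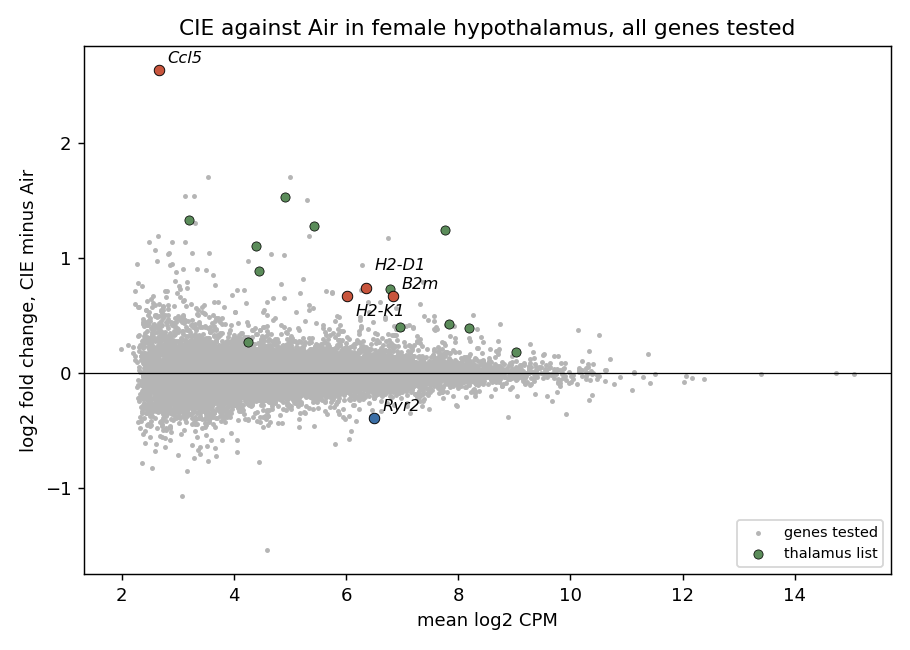
Log2 fold change (CIE minus Air) against mean log2 CPM for the 12854 genes tested, each a grey dot. Ccl5 lies highest at 2.64, the class I genes B2m, H2-D1 and H2-K1 lie between 0.67 and 0.74, Ryr2 lies at -0.39, and the 12 genes of a thalamus list (green) all lie above 0.

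Ccl5 (ENSMUSG00000035042.2), on chr11:83525778-83530518, had the largest rise. Its level in Air was 0 at the lowest, 1.57 at the median and 3.68 CPM at the highest, and in CIE 3.4, 7.83 and 18.5 CPM. CIE mouse 21 was highest, Air mice 30 and 37 had no read, and 9 of 10 CIE libraries lay above every Air library, with CIE mouse 23 the exception. The log2 fold change was 2.64 with an SE of 0.44 and an adjusted p of 0.0298. These are few reads, 23 in all Air libraries together and 191 in all CIE libraries. Ccl5 reached 10 counts in 9 CIE and 0 Air libraries, so it passed the filter on low counts through CIE libraries alone. Leaving out each library in turn gave 0 calls of any gene in 14 of 18 fits, so the calls of Ccl5 and B2m depended on single libraries, while Ccl5 stayed between 2.42 and 2.93 in the 10 fits that tested it and B2m between 0.61 and 0.72 in all 18.

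B2m (ENSMUSG00000060802.8), on chr2:122147686-122153083, had far more reads behind it. It measured 70.2 at the lowest, 84.9 at the median and 95.9 CPM at the highest in Air, and 87.0, 134 and 185 CPM in CIE. The Air libraries lay close together and the CIE libraries spread widely above them, with 9 of 10 over the highest Air library and CIE mouse 23 within the Air range. The log2 fold change was 0.67 with an SE of 0.11 and an adjusted p of 0.0298.

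The heavy chains of class I moved in the same direction. H2-D1 (ENSMUSG00000073411.12), on chr17:35262730-35267499, measured 43.5, 59.5 and 67.8 CPM (lowest, median, highest) in Air and 60, 103 and 123 CPM in CIE. Again 9 of 10 CIE libraries lay above every Air library, and here CIE mouse 33 was the exception. Its log2 fold change of 0.74 (SE 0.13) had an adjusted p of 0.0612 in edgeR and was not called, while DESeq2 called it at 0.000283 and limma voom did not (0.217). H2-K1 (ENSMUSG00000061232.16), on chr17:33996017-34000347, measured 37.8, 45.7 and 63.0 CPM in Air and 42.5, 75.7 and 111 CPM in CIE. The groups overlapped more, with 6 of 10 CIE libraries above every Air library. Its log2 fold change was 0.67 (SE 0.15) with an adjusted p of 0.534 in edgeR, 0.0342 in DESeq2 and 0.887 in limma voom. H2-D1 and H2-K1 are close relatives of each other and of other class I genes, so the division of reads between them is uncertain. In bulk tissue, more cells of a type and more RNA per cell cannot be told apart for any of these genes.

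**Figure D3:**
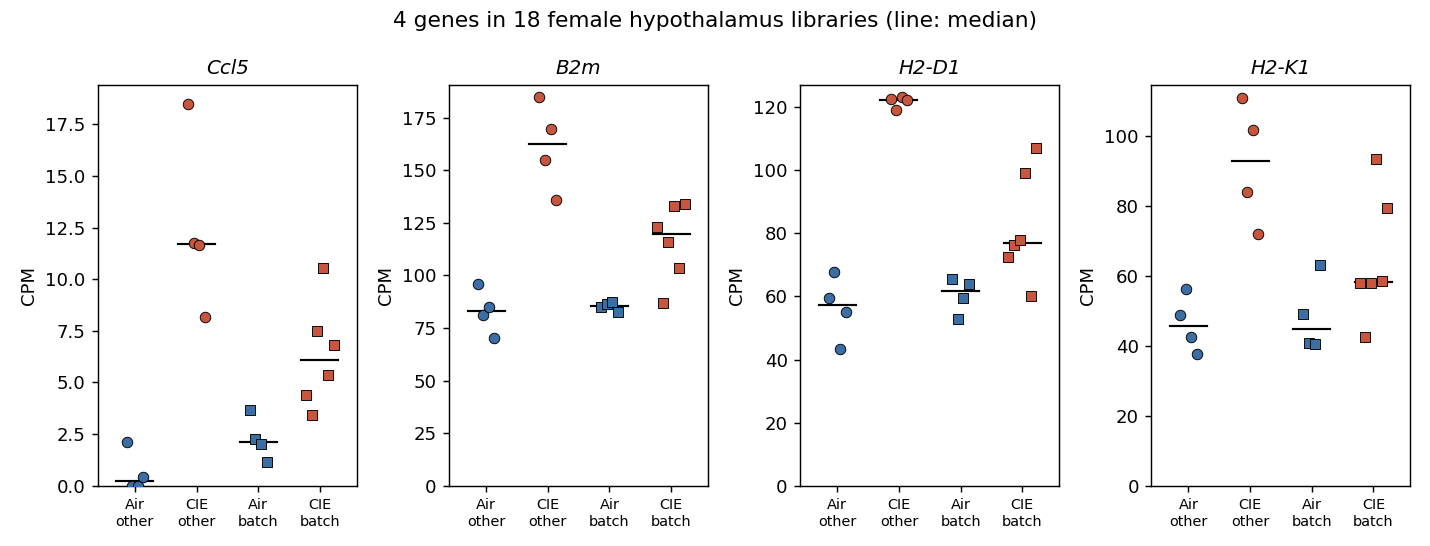
CPM of Ccl5, B2m, H2-D1 and H2-K1 in each female hypothalamus library (circles: other libraries, squares: batch libraries, bar: median). Outside the batch libraries the CIE libraries lie above the Air libraries for all 4 genes, with H2-D1 at 119 to 123 CPM in CIE, and in the batch libraries the groups lie closer together.

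The promoters of the class I genes are shown because these genes moved together and because this family is known for shared elements upstream of its start sites. The windows run from 250 bases before to 50 after the RefSeq start on GRCm38.p6, and B2m, H2-D1 and H2-K1 were found in that table by symbol. The table holds 2 windows for H2-K1, of which the first listed was taken and the other was not searched. Capitals mark GAA and GAAA with 2 or 3 bases between them, as in interferon-response elements, an NF-kappaB motif, and CCAAT, each searched on both strands.
B2m, chr2:122147437-122147736, + strand: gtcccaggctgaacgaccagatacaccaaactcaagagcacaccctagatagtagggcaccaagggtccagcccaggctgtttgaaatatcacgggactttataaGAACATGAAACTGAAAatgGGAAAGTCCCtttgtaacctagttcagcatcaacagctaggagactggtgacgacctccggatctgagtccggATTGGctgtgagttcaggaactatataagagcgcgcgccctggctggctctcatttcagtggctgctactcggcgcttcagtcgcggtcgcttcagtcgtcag
H2-D1, chr17:35262844-35263143, + strand: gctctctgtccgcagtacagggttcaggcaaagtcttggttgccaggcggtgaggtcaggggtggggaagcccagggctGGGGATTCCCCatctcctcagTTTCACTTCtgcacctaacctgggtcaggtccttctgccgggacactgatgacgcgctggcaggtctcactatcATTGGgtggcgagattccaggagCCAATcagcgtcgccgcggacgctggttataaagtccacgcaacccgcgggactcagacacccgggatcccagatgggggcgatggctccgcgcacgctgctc
H2-K1, chr17:34000298-34000597, - strand: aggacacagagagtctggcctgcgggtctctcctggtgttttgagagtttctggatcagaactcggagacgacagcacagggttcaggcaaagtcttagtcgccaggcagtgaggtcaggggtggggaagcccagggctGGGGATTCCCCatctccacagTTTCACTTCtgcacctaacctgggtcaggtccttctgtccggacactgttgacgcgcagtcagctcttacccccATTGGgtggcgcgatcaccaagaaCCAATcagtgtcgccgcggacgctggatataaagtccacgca
In B2m a pair of overlapping GAA and GAAA runs with 3 bases between stood at -145 and -139 from the start, next to an NF-kappaB motif at -126. H2-D1 and H2-K1 each held an NF-kappaB motif, matched on both strands at 2 overlapping positions, followed by a GAA and GAAA run with 2 bases between on the - strand of the window. Among 32851 windows of the same length, 7.52% held the run with 2 bases between, 7.87% the run with 3, 8.46% the NF-kappaB motif and 37.4% the CCAAT box. These matches are letters in the reference sequence and say nothing of what bound there.

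The fold changes were larger outside the batch libraries, although the difference was called for no gene, as given further on. With the 4 Air and 4 CIE libraries that were not batch libraries, 10 of 12522 genes (0.0799%) were called by edgeR, all higher in CIE. H2-D1 ran from 43.5 to 67.8 CPM in these Air libraries and from 119 to 123 CPM in CIE, a log2 fold change of 1.13 (SE 0.11) with an adjusted p of 0.000593. B2m rose by 0.98 (edgeR adjusted p 0.00228), Ccl5 by 4.34 (0.00717) and H2-K1 by 1.01 (0.0116). All 4 CIE libraries lay above all 4 Air libraries for these genes, as they did for 161 of 12522 genes (1.29%), and for 271 genes (2.16%) every CIE library lay below every Air library. Cd74, the invariant chain of MHC class II, was also called, with a log2 fold change of 2.00, from 2.00 to 4.35 CPM in Air and from 8.72 to 16.6 CPM in CIE. Cd74 and Ccl5 passed the filter on low counts in this set through CIE libraries alone. The other calls were Rgs16 (1.65), Maob (0.68), Shisal1 (0.67), Kcnj9 (0.65) and Ramp3 (2.73). Rgs16 belongs to a list of thalamus genes described further on.

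Other markers moved in the same 8 libraries. Tcf7l2, a thalamus gene, exceeded 300 CPM in 3 of the 4 CIE libraries and ran from 41.8 to 98.0 CPM in the 4 Air libraries, a log2 fold change of 1.96 (edgeR adjusted p 0.141). The thalamus list had a median of 1.02 in these libraries and 0.59 (0.585 before rounding) in the batch libraries alone. Microglia genes had medians of 0.35 and 0.05 in these sets. Whether the larger fold changes of the class I genes go with these markers was not tested in this set.

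Within the batch libraries alone, 4 Air against 6 CIE, no gene was called by edgeR: the count was 0 of 13212 (0%), with 353 genes at an unadjusted p under 0.05, and no other tool was run on this set. B2m was the gene of smallest p there, with a log2 fold change of 0.44, followed by Ccl5 with 1.53. H2-D1 moved by 0.44 and H2-K1 by 0.41, so all 4 kept their direction with smaller values, and their edgeR adjusted p was 1.00 for each. Cd74 moved by 0.16. Batch libraries had a higher level of Cd74 as such, by 1.44 on the log2 scale, and in Air mice it ran from 16.1 to 22.9 CPM in them.

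Whether the CIE response differs between batch libraries and others was tested across 13393 genes as a term of the model. No gene passed in edgeR (0%), 363 did at an unadjusted p under 0.05, and no other tool was run on this term. Cd74 had the smallest p, with a difference of 1.83 in log2 (p 0.00035), and H2-D1 (0.69), Ccl5 (2.81) and B2m (0.54) had p of 0.0018, 0.00297 and 0.00357, all with an adjusted p of 1.00. With batch as a term in a shared fit, 3 of 13104 genes (0.0229%) were called, namely B2m, H2-D1 and Ccl5. Their log2 fold changes of 0.69, 0.76 and 2.68 stayed near those without the term.

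**Figure D4:**
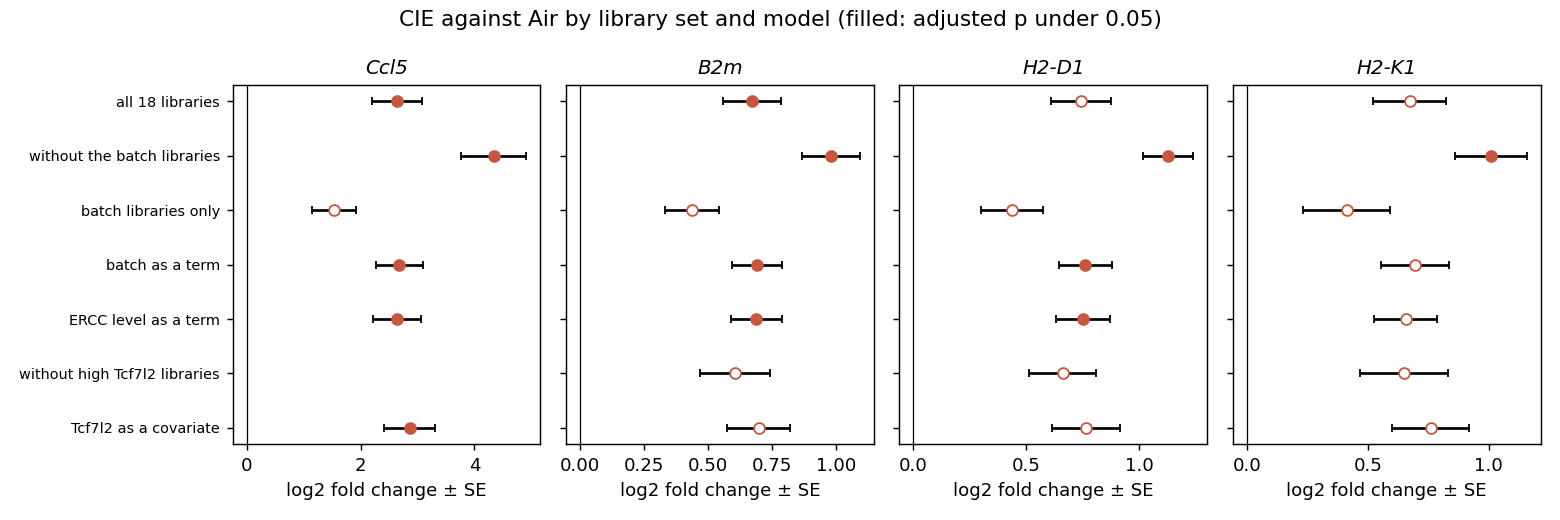
Log2 fold change (CIE minus Air) with its SE for Ccl5, B2m, H2-D1 and H2-K1 in different library sets and models, filled where the adjusted p is under 0.05. All values lie above 0, B2m from 0.44 in the batch libraries to 0.98 without them, and Ccl5 was not tested without the libraries high in Tcf7l2.

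The rest of the class I pathway moved less. Of 16 tested genes of a list of 25, 6 were higher and 0 lower in CIE at an unadjusted p under 0.05, where 3.17% of all genes were higher, and the median log2 fold change was 0.11 beside -0.0013 for all genes. The list median was 0.19 without the batch libraries and 0.06 in them. Beside the 3 described, Tap1, a subunit of the pump that brings peptides to class I, rose by 0.63, H2-M3 by 0.43 (a nonclassical heavy chain) and Psme1, a proteasome activator, by 0.10. Tap1 was highest in CIE mouse 21, and without that library its log2 fold change was 0.40. The partner subunit Tap2 fell by 0.27 and the chaperones Canx and Calr stood at -0.03 and -0.01, none of these at an unadjusted p under 0.05. Nlrc5, which switches class I genes on, was below the filter, at a median of 0.88 CPM in Air and 2.17 in CIE. The list summed to 1234 to 1416 CPM in Air and 1243 to 1690 in CIE, with Canx the most abundant gene.

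MHC class II genes, which present fragments taken up from outside, were at low levels. All 3 tested of 7 lay above 0 with a median of 0.72, and 2 were higher at an unadjusted p under 0.05, beside 3.17% of all genes. The median was 1.18 without the batch libraries, from 2 genes tested, and 0.38 in them, from 4. H2-Aa, a chain of the class II dimer, measured 2.98 CPM at the median in Air and 6.58 in CIE, and H2-DMa, which helps load it, 9.23 and 12.8. Every CIE library exceeded the Air median for both genes, but the ranges overlapped.

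Most interferon-induced genes tested lay slightly above 0. Of 21 tested of 41, 19 lay above 0 with a median log2 fold change of 0.22, and 4 were higher and 0 lower at an unadjusted p under 0.05. Of all genes 49.5% lay above 0, 3.17% were higher and 2.43% lower by this measure. Ifit3, which restrains viral RNA, measured 10.7, 13.5 and 14.4 CPM (lowest, median, highest) in Air and 11.5, 17.1 and 22.2 in CIE, with 9 of 10 CIE libraries above every Air library. Its log2 fold change was 0.43. Ifit2 rose by 0.30 (0.295 before rounding), the GTPase Gbp2 by 0.54 and Iigp1 by 0.51. In the batch libraries alone Iigp1 stood at -0.006. The most abundant gene of the list, Rsad2, belonged to the batch genes above. Irf7 and Isg15 were below the filter.

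Chemokine genes other than Ccl5 were mostly silent or unmoved. Of 30 chemokines and receptors, 9 were tested, 7 of them above 0 with a median of 0.09, and 2 were higher at an unadjusted p under 0.05, beside 3.17% of all genes. The first was Ccl5, which passed the filter through CIE libraries alone, and the second Cx3cl1, a neuronal chemokine read by microglia, at 263 CPM in Air and 286 in CIE (medians) and a log2 fold change of 0.14. Cxcl10, an interferon-induced chemokine, stayed at or below 1.80 CPM in every library.

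Markers of T and NK lymphocytes, which make Ccl5, lay near the floor. Of 26 genes, 6 were tested, 4 of them above 0 with a median of 0.46, and Ccl5 and Ptprc (0.48) were higher at an unadjusted p under 0.05, beside 3.17% of all genes. Ptprc is a gene of leukocytes in general and does not mark lymphocytes alone. Ccl5 passed the filter on low counts through CIE libraries alone, and it is part of the count, the medians and the sums of this list. The median was 0.40 without the batch libraries and 0.17 in them. The list summed to 34.2, 41.5 and 59.7 CPM (lowest, median, highest) in Air and 51.5, 61.6 and 97.9 in CIE, and its most abundant gene was Skap1, at -0.15. Cd3e, which defines T cells, had a median of 0 in both groups and at most 1.08 CPM. Cd8a had a median of 0.20 CPM in Air and 0.85 in CIE, and Gzma 0 and 0.43. Trbc2 (0.44) was highest in CIE mouse 21 at 19.1 CPM, the library that was also highest in Ccl5, B2m and H2-K1. In female blood libraries Ccl5 had a median of 220 CPM in Air and 233 in CIE. The part of lymphocytes in the rise of Ccl5 was not tested.

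Other blood and immune lists gave little. Of 11 B lymphocyte genes 2 were tested, 0 above 0, with a median of -0.17 (Ebf1 the most abundant, -0.18), of 0.05 without the batch libraries and of -0.34 in them. Ebf1 stood at -0.08 without Air mouse 26. Of 10 neutrophil genes 2 were tested, both above 0 with a median of 0.91, and of 12 monocyte and perivascular macrophage genes 2 were tested, both above 0 with a median of 0.50. Their leading genes S100a9 (1.04) and Lyz2 (0.38, and 0.21 without Air mouse 37) had no unadjusted p under 0.05, and both pairs were higher in the batch libraries. The neutrophil median was 0.56 in the batch libraries alone, and without them no neutrophil gene was tested (0). The monocyte median was 0.17 without the batch libraries, from 1 gene tested, and 0.15 in them, from 3. Of 9 erythroid genes 8 lay above 0, with a median of 0.49, and of 21 liver genes 14, with a median of 0.12. In the batch libraries alone the liver median was -0.18 with 4 of 21 above 0, and without them the erythroid median was -0.03 (-0.025 before rounding), so both directions depended on the libraries taken. Bpgm, the most abundant erythroid gene, ran from 66.2 to 559 CPM in Air and from 59.8 to 603 in CIE. None of either list had an unadjusted p under 0.05 in edgeR on the 18 libraries, while in the batch libraries alone some liver genes did, such as Fgb (-0.53) and Hp (-0.58).

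Most microglia genes tested also lay slightly above 0. Of 17 tested of 20, 15 lay above 0 with a median log2 fold change of 0.20, and 5 were higher and 0 lower at an unadjusted p under 0.05, where 49.5% of all genes lay above 0 and 3.17% were higher. The median was 0.35 with 15 of 17 above 0 without the batch libraries, and 0.05 with 11 of 17 above 0 in them. Among the 5 were Tyrobp (0.29), Tmem119 (0.23), Ctss (0.22) and C1qb (0.20), a signalling adaptor, a surface protein, a lysosomal protease and a complement chain. P2ry12 moved by 0.02. The list summed to 563, 586 and 627 CPM in Air and 534, 671 and 765 in CIE, so the CIE median exceeded the highest Air sum and the lowest CIE sum lay below every Air sum. The part of microglia in the class I rise was not tested.

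Genes lower in CIE were led by Ryr2 (ENSMUSG00000021313.16), the ryanodine receptor that releases calcium from internal stores in neurons. It measured 88.4, 104 and 116 CPM (lowest, median, highest) in Air and 60.1, 74.8 and 94.4 CPM in CIE. All 10 CIE libraries lay below the Air median and 8 below every Air library. The log2 fold change was -0.39 (SE 0.08) with an adjusted p of 0.164, so the gene was not called by edgeR on the 18 libraries. DESeq2 called it at 0.0142. Without CIE mouse 33, edgeR called it at -0.43 with an adjusted p of 0.0499. These were the calls in 1 of 16 other settings and 1 of 18 leave-one-out fits. The adjusted p was 0.217 in limma voom, 0.462 in limma on the deposited values and 0.923 in the fit of all 36 hypothalamus libraries. With Tcf7l2 as a covariate the log2 fold change was -0.305, and without the libraries above 300 CPM of it -0.306, and neither was called. The other 9 of the 10 lower genes of smallest p were Sgcd (-0.35), Nsun7 (-0.47), Xkr6 (-0.40), Mir670hg (-0.41), Fgf1 (-0.22), Polr1a (-0.28), Pgr (-0.45), Galntl6 (-0.33) and Unc5a (-0.35). Pgr, the progesterone receptor, measured 34.0, 46.3 and 72.3 CPM in Air and 29.8, 36.2 and 42.9 in CIE, below the Air median in all 10 CIE libraries. Unc5a is a receptor for axon guidance and Fgf1 a growth factor.

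Among the 10 higher genes of smallest p, 6 were outside the class I and chemokine genes. They were Gpr12 (0.73), an orphan receptor, Mios (0.34), a part of the amino acid sensing complex, Cryl1 (0.40), Rgs16 (1.11), a brake on receptor signalling and a member of the thalamus list, Ifit3, and Vipr2 (1.19), the receptor for VIP. Gpr12 measured 6.74, 11.9 and 20.5 CPM in Air and 13.7, 19.5 and 27.4 in CIE, and Vipr2 0.90, 3.13 and 5.35 in Air and 3.23, 6.59 and 14.5 in CIE. Both lay above the Air median in all 10 CIE libraries and overlapped the Air range. Their adjusted p were 0.661 and 0.818.

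Genes that mark the thalamus, the region next to the hypothalamus, moved with CIE. All 12 of 12 tested lay above 0, with a median log2 fold change of 0.81, and 9 were higher at an unadjusted p under 0.05, where 3.17% of all genes were. Tcf7l2, a transcription factor of thalamic neurons, measured 31.2, 90.6 and 313 CPM in Air and 34.3, 276 and 532 in CIE. It exceeded 300 CPM in 5 CIE libraries (mice 22, 24, 25, 32 and 34) and in 1 Air library (mouse 29), and the groups overlapped. The log2 fold changes were 1.25 for Tcf7l2, 1.53 for Prkcd, 1.33 for Gbx2, 1.28 for Synpo2, 1.11 for Rgs16, 0.89 for Lef1, 0.73 for Necab1, 0.43 for Slc17a6 and 0.39 for Rora. Prkcd was highest in CIE mouse 25 at 180 CPM, and without that library its value was 0.89 (0.885 before rounding). The list summed to 1115, 1174 and 2040 CPM in Air and 1037, 1700 and 2881 in CIE, with Calb2 the most abundant gene. None was called over all genes, with an adjusted p of 0.818 for Tcf7l2.

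Tcf7l2 was therefore brought into the comparison of the class I genes. Without the 6 libraries above 300 CPM, which left 7 Air and 5 CIE libraries, the log2 fold changes were 0.61 for B2m, 0.66 for H2-D1 and 0.65 for H2-K1. These are close to the values with all libraries, but no gene was called: the count was 0 in edgeR, with 492 genes at an unadjusted p under 0.05, and no other tool was run on this set. Of the CIE libraries left, only that of mouse 21 was not a batch library, and it was the highest in B2m and H2-K1. Among the Air libraries left, mice 27, 30, 37 and 39 were not batch libraries. Batch and group were thus unbalanced in this set, which cannot separate Tcf7l2 from batch. With the log2 CPM of Tcf7l2 as a covariate the values were 2.86 for Ccl5, which kept its call at an edgeR adjusted p of 0.0301, 0.70 for B2m (0.0779), 0.76 for H2-D1 (0.176) and 0.76 for H2-K1 (0.29).

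Genes of 2 further lists, hypothalamic patterning genes and peptide and steroid hormone receptors, lay mostly below 0 in the 18 libraries. Of 24 patterning genes tested of 27, 4 lay above 0 with a median of -0.18, and 0 were higher and 3 lower at an unadjusted p under 0.05, Irs4 (-0.57), Dlx1 (-0.37) and Nr2f2 (-0.19). In the batch libraries alone the patterning median was -0.01 (-0.015 before rounding) with 11 of 23 above 0, and without them -0.25. Without Air mouse 28, Irs4 was -0.38 and Nr2f2 -0.10. Of 28 hormone receptor genes tested of 32, 5 lay above 0 with a median of -0.17, and 4 were lower, among them Pgr, Esr1 (-0.77) and Hcrtr1 (-0.47). Esr1, the estrogen receptor, measured 16.0, 19.0 and 76.3 CPM in Air and 10.8, 15.6 and 20.4 in CIE. Air mouse 28 alone held the value of 76.3, without it the log2 fold change was -0.32, and 6 CIE libraries lay below every Air library. Of all genes 2.43% were lower by this measure. Whether the place of the punch moved these lists and the thalamus list was not tested.

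Neuropeptide genes followed no common direction. Of 27 tested of 35, 11 lay above 0 with a median of -0.06, and 1 was higher and 4 lower at an unadjusted p under 0.05, beside 3.17% and 2.43% of all genes. Cck, cholecystokinin, rose by 1.18, from 48.8 CPM at the median in Air to 107 in CIE. Without the batch libraries its log2 fold change was 2.00. In the batch libraries its medians were 85.8 CPM in Air and 80.4 in CIE. Sst, somatostatin, measured 407, 546 and 768 CPM in Air and 317, 372 and 678 in CIE, with 7 CIE libraries below every Air library and CIE mouse 31 well above the others, and its log2 fold change was -0.38. Penk, an enkephalin precursor, fell by 0.28 (0.285 before rounding). Pomc and Npy, peptides of the arcuate nucleus, had log2 fold changes of -1.54 and -1.07, and Air mouse 27 stood apart, with 229 CPM of Pomc and 54.1 of Npy. Without that library the values were 0.22 and 0.03. Hcrt (0.03), Oxt (-0.35) and Avp (-0.18) had p of 0.965, 0.542 and 0.8 in edgeR. Pmch, the most abundant gene of the list, stood at 0.33 with p 0.424.

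Neuron genes moved in both directions. Of 11 tested of 12, 6 lay above 0 with a median of 0.001, which turned negative with upper-quartile or no normalization factors, and 2 were higher and 2 lower at an unadjusted p under 0.05, again beside 3.17% and 2.43%. Slc17a6, the vesicular glutamate transporter, rose by 0.43, and Stmn2 by 0.19, while Slc32a1, the vesicular GABA transporter, fell by 0.28 and Gad2, an enzyme of GABA synthesis, by 0.24. Slc17a6 measured 134, 176 and 276 CPM in Air and 158, 258 and 357 in CIE, and Slc32a1 194, 275 and 360 in Air and 173, 219 and 290 in CIE. The ranges overlapped in both genes. Slc17a6 is also a member of the thalamus list.

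Of the other brain regions, 8 cortex and hippocampus genes tested of 13 had a median of 0.12 with 5 above 0, and 2 were higher (3.17% of all genes), Slc17a7 (1.31) and Cux2 (0.39). Their median was 0.23 without the batch libraries and 0.09 (0.085 before rounding) in them. Slc17a7 ran from 1.60 to 9.5 CPM in Air and from 0.62 to 26.9 in CIE, low levels that were highest in CIE mice 22 and 25, which also had high Tcf7l2. Without the libraries above 300 CPM of Tcf7l2, Cux2 stood at -0.021. The 9 striatum genes tested of 10 had a median of -0.17 with 2 above 0, and 1, Penk, was lower (2.43% of all genes). No pituitary gene of 10 passed the filter (0 tested), though Gh and Prl reached 21.6 and 21.2 CPM in CIE mouse 32.

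Other cell types of the brain showed medians near 0. The 14 astrocyte genes had a median of 0.03 with 9 above 0, led by Slc1a2 (0.03), and the 14 endothelial genes 0.02 with 9 above 0, led by Bsg (0.01). The 11 mural and fibroblast genes tested of 16 had a median of 0.06 with 7 above 0, led by Rgs5 (0.06). The 15 oligodendrocyte genes had a median of -0.16 with 0 above 0, led by Mbp (-0.19). Without the batch libraries their median was 0.11 and all 15 lay above 0. Air mouse 26 held 2581 CPM of Mbp, and without that library alone Mbp stood at -0.0026. The 9 precursor genes had a median of -0.05 with 3 above 0, led by Bcas1 (-0.17), which stood at 0.055 without Air mouse 26. The astrocyte median was -0.02 without the batch libraries and the endothelial median -0.01 (-0.015 before rounding) in them. No gene of these 5 lists had an unadjusted p under 0.05.

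The 7 choroid plexus genes tested of 10 had a median of -0.01 with 3 above 0, and 1 was lower (2.43% of all genes), Clic6 (-0.69), a chloride channel protein at 20.8 CPM in Air and 11.2 in CIE (medians). CIE mouse 21 had 32.0 CPM of it, above every Air library. The choroid plexus median was -0.24 without the batch libraries, from 5 genes tested, and -0.16 in them, from 7. The 12 ependymal and tanycyte genes tested of 13 had a median of -0.10 with 1 above 0 and none (0) at an unadjusted p under 0.05, and Rarres2, the most abundant, stood at 0.06. This list turned with the libraries taken, with a median of -0.34 and 0 of 11 above 0 without the batch libraries and of 0.18 and 10 of 12 above 0 in them.

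**Figure D5:**
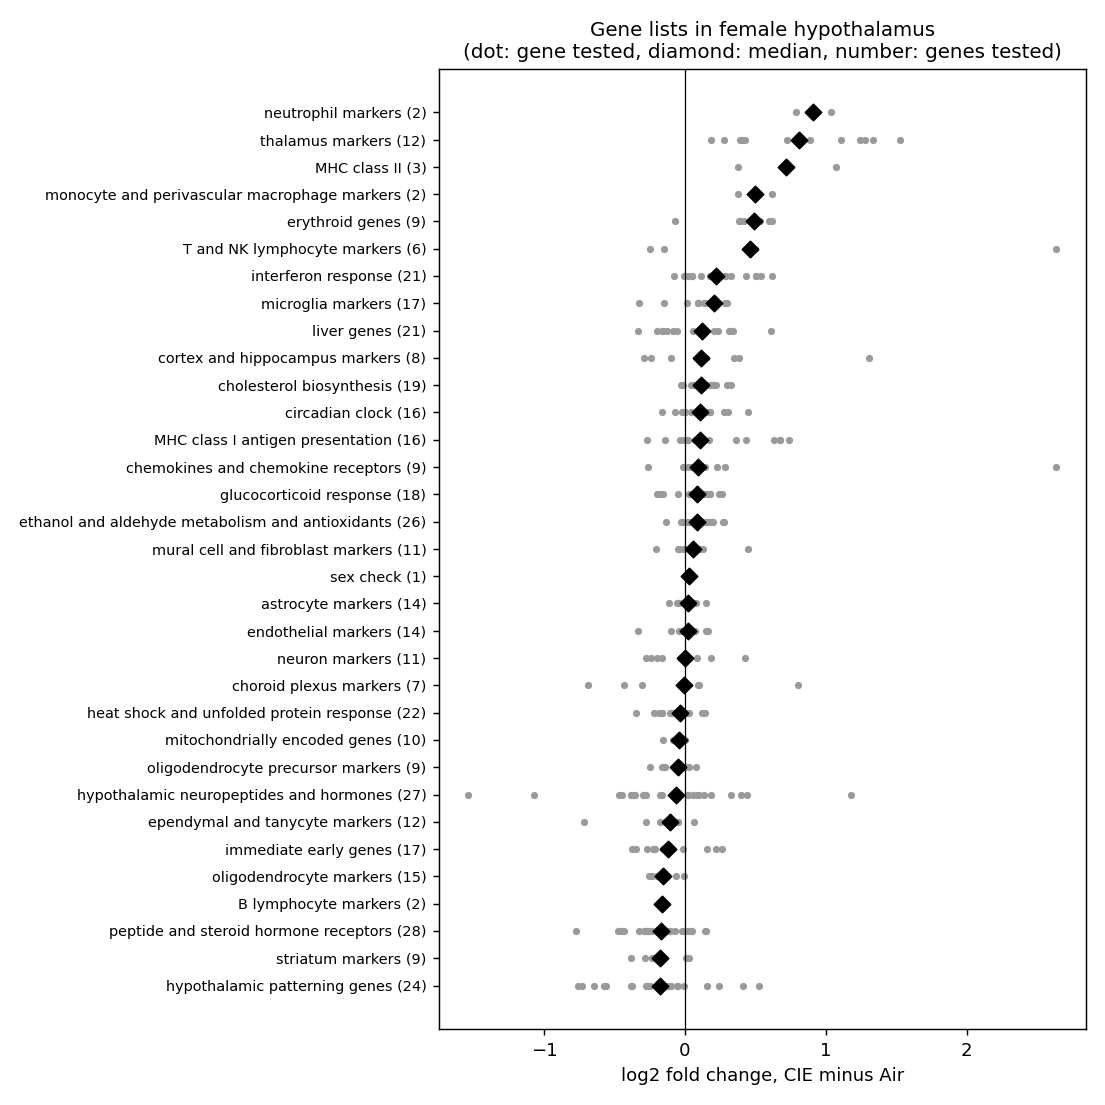
Log2 fold change (CIE minus Air) of the genes tested in each list (dots) with the list median (diamond) and the number of genes tested in brackets. The thalamus list has its 12 genes above 0 with a median of 0.81. The list of hypothalamic patterning genes has a median of -0.18 and that of hormone receptors -0.17.

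Pathways that ethanol is known to touch in other tissues moved little. Cholesterol synthesis genes lay mostly on 1 side, with 17 of 19 tested (22 listed) above 0, a median of 0.12, and 4 higher at an unadjusted p under 0.05, where 49.5% of all genes lay above 0 and 3.17% were higher. Among the 4 were Insig1 (0.30), Nsdhl (0.22) and Hmgcs1 (0.21). Hmgcs1, an early enzyme of the pathway, measured 141, 171 and 201 CPM in Air and 167, 196 and 237 in CIE, above the Air median in 9 of 10 CIE libraries. Ethanol and aldehyde metabolism and antioxidant genes had 21 of 26 tested (30 listed) above 0, a median of 0.08 and none (0) at an unadjusted p under 0.05, with Sod1 the most abundant (-0.02). The median of this list was 0.03 without the batch libraries, from 23 genes tested, and 0.06 in them. Batch libraries as such were higher in 6 of the 26 genes (adjusted p under 0.05 in edgeR), beside 1.47% of all genes. The 10 mitochondrially encoded genes tested of 15 had a median of -0.04 (-0.045 before rounding), 1 above 0 and 1 lower (2.43% of all genes), mt-Nd6 (-0.15).

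For the lists that follow, the shares of all genes are again 49.5% above 0, 3.17% higher and 2.43% lower. Clock genes had 13 of 16 tested (17 listed) above 0, a median of 0.11 and 3 higher at an unadjusted p under 0.05, Hlf (0.45), Bhlhe40 (0.31) and Per1 (0.18). Glucocorticoid response genes had 14 of 18 tested (19 listed) above 0, a median of 0.08 and 2 higher, Per1 and the metallothionein gene Mt2 (0.26, and 0.17 without CIE mouse 23). Without the batch libraries the median of this list was -0.02, and in them 0.16. Immediate early genes had 3 of 17 tested (20 listed) above 0 with a median of -0.12 and none (0) at an unadjusted p under 0.05, led by Jun (-0.09, and -0.0014 without Air mouse 29). Heat shock and unfolded protein genes had 5 of 22 tested (23 listed) above 0, a median of -0.03 and 2 lower, Pdia6 (-0.17) and Pdia4 (-0.18), which fold proteins in the endoplasmic reticulum. Xist, the one gene tested of 5 sex genes, moved by 0.03.

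The CIE response of the hypothalamus was set against that of other regions. Mice with a hypothalamus library gave 17 of the 18 amygdala and 18 of the 19 prefrontal cortex libraries. Against the female amygdala, 0 of 13337 genes (0%) differed in edgeR, with 627 at an unadjusted p under 0.05, and against the female prefrontal cortex 0 of 13533 (0%), with 589. No other tool was run on these terms. The genes of smallest p were Ctnnd1, a catenin of cell junctions, with a difference of 0.35 from the amygdala, and Farp1, which shapes dendrites, with 0.32 from the prefrontal cortex. B2m rose by 0.63 in the amygdala and 0.37 in the prefrontal cortex, beside 0.67 in the hypothalamus. H2-D1 rose by 0.93 and 0.73 there and H2-K1 by 0.83 and 0.57, with none of these called in its own region. Ccl5 had medians of 0.86 CPM in Air and 7.31 in CIE in the amygdala and 1.48 and 5.84 in the prefrontal cortex, so its level in each group was near that of the hypothalamus, and it did not pass the filter in those regions alone.

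Against the male hypothalamus, 0 of 13523 genes (0%) differed in edgeR, with 789 at an unadjusted p under 0.05, and no other tool was run. The gene of smallest p was Phactr1, a regulator of actin, with a difference of -0.69 (SE 0.16) and an adjusted p of 0.613. It measured 171, 189 and 267 CPM in female Air and 118, 159 and 197 in female CIE, and had medians of 175 in male Air and 220 in male CIE. B2m in male hypothalamus had medians of 91.0 CPM in Air and 110 in CIE, a log2 fold change of 0.28, and its difference between the sexes was 0.40 (p 0.00803, adjusted 0.724). In the female batch libraries alone B2m rose by 0.44, nearer to the male value, and that difference was not tested. Those of H2-D1 and Ccl5 were 0.47 (adjusted p 0.807) and 1.18 (0.874). All 18 male hypothalamus libraries were batch libraries, so sex and batch cannot be told apart in this comparison outside the female batch libraries. They were unlike the female batch libraries in Alb, which ran from 0.940 to 4.74 CPM in male Air and from 1.85 to 166 CPM in male CIE with a median of 51.7. Xist and liver genes stood among those of smallest p for the difference between the sexes, with Xist at -1.98, Hpx at -5.37, Pon1 at -4.36, Fgb at -5.32 and Alb at -4.42.

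In blood of the female mice B2m was at 1894 CPM at the median in Air and 2160 in CIE, H2-D1 at 752 and 632, and H2-K1 at 594 and 388. The blood ranges of the groups overlapped for each of these genes, and no test was made there.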

How the data were processed

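The authors made TagSeq libraries, aligned the reads with Bowtie2 and counted them per gene with HTSeq, per the submitters' processing notes (GRCm38), and deposited raw counts per library. They also deposited log2 values (voom, limma 3.42.2) for female hypothalamus, used as an alternative only. From 55385 genes, without 92 ERCC and 5 summary rows, genes were kept by filterByExpr (minimum count 10, total 15) and tested with edgeR 4.0.16 (TMM, quasi-likelihood F test, Benjamini-Hochberg over all genes tested, threshold 0.05) in R 4.3.3. DESeq2 1.42.0 and limma 3.58.1 served as alternatives. CPM are counts per 1000000 reads on genes. In simulated data with 200 genes changed 2-fold the procedure recovered most changed genes, and the share of wrong calls exceeded the threshold. The changed genes were drawn from those with higher counts than Ccl5, and no batch was simulated. Smaller changes were not tried. Gene symbols matched for 55144 of the identifiers. Positions come from GENCODE M21 on GRCm38 and promoters from RefSeq on GRCm38.p6.

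Text names the called genes, the 10 of smallest p in each direction, the batch and sex genes, list genes with an unadjusted p under 0.05 or, without any, the most abundant, and the gene of smallest p for each difference. Some genes this rule names are not reported here. Other genes were picked with their values in view. The members and the 34 gene lists were chosen with earlier results of these data known.

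Titles give the same mouse number to hypothalamus, amygdala and prefrontal cortex. Deviations from group means correlated within a mouse at a median r of 0.25 over 17 mice (amygdala) and 0.228 over 18 mice (prefrontal cortex). The lowest values within a mouse were -0.098 and -0.064, and the medians between different mice were -0.038 and -0.026. The library of the same mouse was the best match for 5 of 17 hypothalamus libraries in the amygdala and 8 of 18 in the prefrontal cortex. Library pairs of a group differed beyond counting error (lowest chi-square per degree of freedom 1.63 in Air, 1.53 in CIE), so 0 pairs were copies.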

Additional observations from a re-analysis of the deposited data

Results flagged for a closer look

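Among 184 groups of libraries examined, 23 had an extreme library set apart from the rest of its group by a gap large for the range. Chance gives about 5% for normally distributed values in independent groups. CPM were not checked for this, and the groups are of related genes, some picked by p, so the 5% is only a rough guide. Several of the 23 share a library.

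Air mouse 29 was set apart by such a gap in 6 genes, with 27.0 CPM of Cryl1, 64.0 of Synpo2, 39.0 of Prkcd, 158 of Necab1, 71.5 of Jun and 232 of Hlf. It was the Air library above 300 CPM of Tcf7l2. Air mouse 26 was highest in Mbp at 2581 CPM and Bcas1 at 443 CPM, and lowest in Per1 at 28.2 CPM. Air mouse 27 held 229 CPM of Pomc and 54.1 of Npy, where the next Air libraries had 16.1 and 9.43. Air mouse 28 held 76.3 CPM of Esr1 and 267 of Phactr1, and Air mouse 39 held 51.5 CPM of Xkr6.

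CIE mouse 21 was highest of CIE in Tap1 at 23.4 CPM, Iigp1 at 17.2, Clic6 at 32.0 and Irs4 at 116. CIE mouse 25 was highest in H2-DMa at 17.5 CPM and in Prkcd at 180 CPM. CIE mouse 31 was highest in Sst at 678 CPM, CIE mouse 34 in Nsdhl at 50.2 CPM, and CIE mouse 23 was lowest in Slc1a2 at 1215 CPM.

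ERCC spike-in RNA, left out of the gene counts, reached 44323 reads in CIE mouse 22 and gave 3 levels of libraries. The levels were 6 to 65 reads in 8 libraries, 594 to 1134 in 6 and 32924 to 44323 in 4. The cause of the levels was not tested.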

How the results depend on the processing

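The count of 2 called genes depended on the tool and the libraries. It was 2 with RLE, upper-quartile or no normalization factors and 3 without a filter, in a fit of all 36 hypothalamus libraries, with batch as a term, or at a threshold of 0.1. It was 0 at a minimum count of 30, where Ccl5 is not tested (574 genes at an unadjusted p under 0.05), 5 in DESeq2 (Ccl5, B2m, H2-D1, H2-K1 and, lower, Ryr2), 0 in limma voom (689) and 0 in limma on the deposited log2 values (796). It was 10 without the batch libraries. Of alternatives chosen after seeing the data, the batch libraries alone gave 0, ERCC level as a term 4 (B2m, H2-D1, Ccl5 and, lower, Hapln4), leaving out libraries above 300 CPM of Tcf7l2 0, and Tcf7l2 as a covariate 1. Leaving out each library in turn gave 0 to 3, with 0 in 14 of 18 fits. Calls were made without CIE mouse 22 (3: Ccl5, H2-D1 and B2m) and CIE mouse 23 (2: B2m and Ccl5). They were also made without CIE mouse 33 (3: H2-D1, B2m and, lower, Ryr2) and Air mouse 26 (1: Ccl5). Leaving out any other library ended both calls. The cause was not tested, though Ccl5 was tested in only 10 of these fits. Over them B2m ran from 0.61 to 0.72 (adjusted p 0.00513 to 0.168) and Ccl5 from 2.42 to 2.93 (0.0153 to 0.105), and over the other settings B2m from 0.44 to 0.98 (4.47e-05 to 1.00) and Ccl5 from 1.53 to 4.34 (1.11e-05 to 1.00).

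Of 2995 values of named genes under alternatives, 2913 kept their direction and side of the threshold, 31 lost a call and 14 gained one. A further 37 changed sign, none of these with an adjusted p under 0.05 in the comparison or the alternative. Only values of Ccl5 and B2m could lose a call, so the 2913 are mostly genes uncalled throughout. Ccl5 was called in 3 of 10 leave-one-out fits and 11 of 14 other settings. B2m was called in 3 of 18 and 10 of 16. Of the list medians, that of the neuron list changed sign with the scaling. Without the batch libraries the reversed values were Alas2 -0.50, Bcas1 0.092, Ebf1 0.024, Mbp 0.14, Rarres2 -0.335, Sod1 0.067 and Xist -0.034. With batch as a term Alb was -0.006, and with ERCC level as a term Alb was -0.041 and Rarres2 -0.0027. In the batch libraries alone Bsg was -0.013, Iigp1 -0.006, Pomc 0.26 and Slc1a2 -0.012. With Tcf7l2 as a covariate Ebf1 was 0.006, Gbx2 -0.15, Rgs5 -0.017, Slc1a2 -0.009, Sod1 0.006 and Tcf7l2 itself -0.0014, and without the libraries high in it Cux2 was -0.021, Rgs5 -0.13 and Slc1a2 -0.054. A value of Tcf7l2 near 0 was fixed by using the gene as its own covariate, so that change of sign, counted among the 37, says nothing about it. In DESeq2 Npy was 0.039 and Pomc 0.22. With 1 library left out, Bcas1 ran from -0.228 to 0.055 (without Air mouse 26), Bsg from -0.019 (Air mouse 39) to 0.026, Npy from -1.22 to 0.028 and Pomc from -1.73 to 0.22 (both Air mouse 27), Rarres2 from -0.121 (CIE mouse 31) to 0.17, Rgs5 from -0.01 (Air mouse 28) to 0.112, Sod1 from -0.047 to 0.0049 (Air mouse 27) and Xist from -0.0047 (Air mouse 40) to 0.076. The cause was not tested.

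The differences between regions and sexes gave 0 calls with RLE factors and without a filter. They also gave 0 with mouse as a replicate block (609 genes at an unadjusted p under 0.05 for the amygdala, 781 for the prefrontal cortex), and the block changed no call. Small difference terms changed sign: Ccl5 against the amygdala was 0.06 with the block and 0.057 without the batch libraries, and against the prefrontal cortex H2-D1 was -0.0034 without a filter and -0.044 without the batch libraries, and H2-K1 -0.00043 without them. The difference between the sexes without the batch libraries was not run, since no male hypothalamus library would remain. At a median of 2239320 reads on genes in Air and 2225621 in CIE, genes near 1 CPM, such as Cd3e and Nlrc5, rest on a few reads each.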
